A study of Homo sapiens with 32 samples.

Results

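The genes described here are 39 interferon-stimulated genes (ISGs), genes that cells switch on when an interferon binds its receptor. They were taken by name, with earlier results of these data known. All 39 were found among the 17788 genes of the count table, and 37 of them were among the 14865 genes that passed a filter on low counts and were tested. RNA was sequenced from MCF10A cells, an immortalized, non-tumorigenic line of the human mammary epithelium. Clones 27 and 2 carried wild-type JUNB (WT). Clones 1 and 65 were edited with CRISPR/Cas9, carried an extended deletion in JUNB and kept a low level of a smaller JUNB polypeptide (mut, labelled KO). Each clone received TGFβ1 at 5 ng/ml for 6, 24 or 72 h, or the solvent alone, in 2 replications, which gave 8 groups of 4 libraries. Solvent was applied for 72 h, and all cells were collected at the same time after seeding. Every clone descends from 1 cell, so that each genotype was represented by 2 clones, and the p-values measure the spread between libraries of these clones. The 4 libraries that share a clone and a replication form a series, named by both numbers, so that 27-1 stands for clone 27 in replication 1.

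Interferons are secreted proteins that warn cells of infection. Type I and type III interferons act through JAK kinases to form ISGF3, a complex that holds STAT2 and IRF9 and binds the interferon-stimulated response element (ISRE) in target promoters, while type II interferon acts at gamma-activated sites (GAS) and through IRF1. Epithelial cells keep many of these genes at a low level without added interferon, and no interferon was added to these cultures. JUNB is a subunit of AP-1, a transcription factor that binds other sites, and TGFβ1 drives an epithelial-mesenchymal transition in MCF10A cells.

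Library totals lay between 39702412 and 54651906 counts, and values are given as CPM, the count divided by the library total and multiplied by 1e6. A count of 3, taken as the floor, corresponded to 0.0549 to 0.0756 CPM. JUNB itself had 89.7, 94.0, 117 and 90.0 CPM in WT solvent and 69.2, 77.5, 128 and 172 CPM in mut solvent, so that its transcript level did not separate the genotypes (mut against WT log2 fold change 0.10, limma-voom adjusted p = 0.885). All 10 epithelial markers had a mean of at least 1 CPM. Of 6 leukocyte markers in the table, PTPRC, CD3E and LYZ did not exceed 0.0498, 0.0457 and 0.115 CPM in any library, ITGAM had a mean of 0.382 CPM, and CD14 and NCAM1 had means of 11.4 and 6.14 CPM. The 6 summed to 15.1 to 27.8 CPM in WT solvent, 7.75 to 11.2 CPM in WT 72 h, 27.2 to 34.4 CPM in mut solvent and 14.9 to 23.4 CPM in mut 72 h. Of 2 endothelial markers in the table, VWF did not exceed 0.140 CPM and KDR had a mean of 13.3 CPM, and their sum was 5.62 to 15.1 CPM in WT solvent, 2.94 to 3.78 CPM in WT 72 h, 21.1 to 27.0 CPM in mut solvent and 13.1 to 20.9 CPM in mut 72 h. Summed fibroblast markers rose from 43.1 to 67.5 CPM in WT solvent to 268 to 383 CPM in WT 72 h, and stood at 54.6 to 80.0 CPM in mut solvent and 197 to 270 CPM in mut 72 h. The part of these changes in the results below was not tested. FN1, the fibronectin gene, set apart the solvent libraries 27-2, at 1548 CPM against at most 580 CPM in WT, and 1-2, at 1413 CPM against at most 373 CPM in mut, and the counts of called members without series 27-2 are given for WT at 24 and 72 h and without series 1-2 for mut at 72 h. In bulk RNA, fewer cells expressing a gene and less RNA per cell cannot be told apart.

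Motifs were sought in the promoters, from 250 bases before to 50 after the gene start, that RefSeq (GRCh38.p14) gives for 32 of the 39 genes. The 7 genes without an entry were IRF7, USP18, IFIT2, OAS2, OASL, MX2 and TRIM22. The core of the ISRE, written GAAANNGAAA and read on both strands, occurred in 21 of the 32 promoters (65.6%) and in 3.65% of all 27305 promoters. A GAS, TTCNNNGAA, occurred in 9 of 32 (28.1%) and in 7.88% of all, and in 4 of these 9 it overlapped an ISRE core. The AP-1 site TGANTCA occurred in 2 of 32 (6.25%), IFIT5 and SAMD9L, and in 7.76% of all. A match describes the letters of the window and does not show binding. The stretches below belong to genes whose values are given in full further on, are printed 5′ to 3′ on the strand of the gene, and carry the motif in capitals. The ISRE cores printed for IFI27 and IFIT1 lie on the opposite strand and so appear as their reverse complement.
ISG15, ISRE core, chr1:1013380-1013409, plus strand: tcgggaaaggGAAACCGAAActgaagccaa
IFI6, ISRE core, chr1:27672288-27672317, minus strand: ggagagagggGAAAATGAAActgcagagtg
IFI27, ISRE core, chr14:94110618-94110647, plus strand: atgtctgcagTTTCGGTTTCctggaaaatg
IFIT1, ISRE core, chr10:89392497-89392526, plus strand: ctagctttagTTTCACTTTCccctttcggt
IFITM1, ISRE core, chr11:313990-314019, plus strand: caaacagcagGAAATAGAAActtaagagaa
IFITM3, ISRE core, chr11:320876-320905, minus strand: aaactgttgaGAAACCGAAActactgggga
EPSTI1, ISRE core, chr13:42992272-42992301, minus strand: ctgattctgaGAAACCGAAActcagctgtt
IRF1, GAS, chr5:132490879-132490907, minus strand: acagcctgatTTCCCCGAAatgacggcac
IRF9, GAS, chr14:24161192-24161220, plus strand: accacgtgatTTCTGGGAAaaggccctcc
SAMD9L, AP-1 site, chr7:93148508-93148534, minus strand: ttctaagcagTGATTCAaatttattga
The promoters of STAT2, IRF1, IRF9, OAS1 and SAMD9L held no ISRE core in this window, whereas those of ISG15, IFI6, IFI27, IFIT1, IFITM1, IFITM3 and EPSTI1 did.

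In WT cells treated with solvent, most of these genes were expressed at a low level. Averaged over all libraries, 7 of the 39 lay under 1 CPM, 16 between 1 and 10 CPM, 14 between 10 and 100 CPM, and 2 at 100 CPM or more. Divided by the summed exon length of the gene, the highest levels in WT solvent were those of IFITM3, a membrane protein that hinders the entry of viruses (146 ± 22.7 CPM per kb, SD, n = 4), and of LGALS3BP, a secreted glycoprotein (119 ± 11.8 CPM per kb). The next level, of the ubiquitin ligase DTX3L, was 13.2 ± 0.754 CPM per kb, close to the 12.6 ± 1.89 CPM per kb of UBE2L6, the conjugating enzyme for ISG15. At the other end stood the antiviral GTPase MX1 at 0.0510 ± 0.0267 CPM per kb, the related MX2 at 0.00548 ± 0.00394 CPM per kb and XAF1, which promotes cell death, with no read. MX2 reached 0.308 CPM and XAF1 0.0932 CPM in their highest libraries, and these 2 genes were not tested.

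In WT cells, 3 of the 4 transcription factors rose by 72 h of TGFβ1, and the shares of the members called lower at 24 and 72 h were close to those of all genes. At 6 h, 7 of the 37 tested genes were called and all 7 were lower (18.9%), while 11.9% of all genes were called lower and 5.13% higher. At 24 h, 19 were called, 4 higher and 15 lower, against 14.1% of all genes higher and 38.0% lower. At 72 h, 20 were called, 6 higher and 14 lower, against 13.9% higher and 38.4% lower. A call here is a Benjamini-Hochberg adjusted p under 0.05 in a two-sided limma-voom test over all tested genes, and the fold changes are on the log2 scale. The median log2 fold change of the 37 genes was −0.231, −0.348 and −0.254 at the 3 times, and that of all genes was −0.0785, −0.176 and −0.191. Scaling by trimmed mean of M-values (TMM) moved the medians of all genes to 0.00139 at 24 h and −0.0286 at 72 h. With it, 7 members were higher and 10 lower at 24 h, against 23.5% and 23.2% of all genes, and 8 were higher and 10 lower at 72 h, against 21.5% and 23.3%. No called member changed its sign under TMM. DESeq2 gave 9 higher and 10 lower at 24 h, against 24.2% and 23.6% of all genes, and 10 higher and 9 lower at 72 h, against 22.9% and 23.1%. With the series as a block, 1 member was higher and 11 lower at 6 h, against 7.78% and 18.1% of all genes, 9 were higher and 17 lower at 24 h, against 17.1% and 42.4%, and 11 were higher and 16 lower at 72 h, against 16.3% and 43.6%. With TMM and the block together, 12 were higher and 12 lower at 72 h, against 3735 and 4119 of all 14865 genes. Without series 27-2, 4 were higher and 13 lower at 24 h, against 13.2% and 35.7%, and 8 were higher and 10 lower at 72 h, against 13.2% and 36.9%. The majority of lower calls at 72 h thus depended on the scaling and the model. The 6 h count rested on single libraries, since it fell to 4 without WT solvent 27-1 and to 3 without WT 6 h 2-2.

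By role, no group of members was called as a whole in WT at 72 h. Of the 4 transcription factors, STAT2, IRF7 and IRF9 rose and IRF1 was not called. Of the ISG15 group, ISG15 rose, and UBE2L6, the HERC-type protein HERC6 and the ISG15 protease USP18 fell. Among the RNA-binding IFIT proteins, IFIT2 (−0.80 ± 0.24, SE, adjusted p = 0.00658) and IFIT5 (−0.48 ± 0.10, adjusted p = 0.000255) fell, whereas IFIT1 and IFIT3 were called lower at 6 and 24 h and not at 72 h. With the series as a block, IFIT1 was lower at 72 h too (adjusted p = 0.0302). The 2-5A synthetases OAS1 and OAS3 fell, and OAS2 and OASL were not called. The RNA sensor IFIH1 fell by 0.70 ± 0.21 (adjusted p = 0.00653). Among the remaining effectors, IFI27 and SAMD9L rose and IFITM3, TRIM22, EPSTI1 and LGALS3BP fell, as did PARP9 and PARP14, ADP-ribosyltransferase family members, by 0.33 ± 0.12 and 0.25 ± 0.10. The calls of USP18, PARP9, PARP14 and EPSTI1 were lost under TMM. Leaving out WT 72 h 2-2 lost the calls of IFIT2 (adjusted p = 0.0508), IFIH1 (0.056), USP18 (0.183), PARP9 (0.102) and PARP14 (0.0951). The last 3 were also lost without WT solvent 27-1 or WT 72 h 27-2, USP18 without WT solvent 27-2, and PARP14 without WT solvent 2-1 or 2-2. The 4 libraries at 72 h did not overlap those of solvent for IRF7 and IRF9, which were higher, and for IFIT5, IFITM3, TRIM22 and LGALS3BP, which were lower. The share of all genes without such an overlap is not given here, and 52.2% of all genes were called in this comparison. The list therefore does not set these members apart from other genes.

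**Figure D1:**
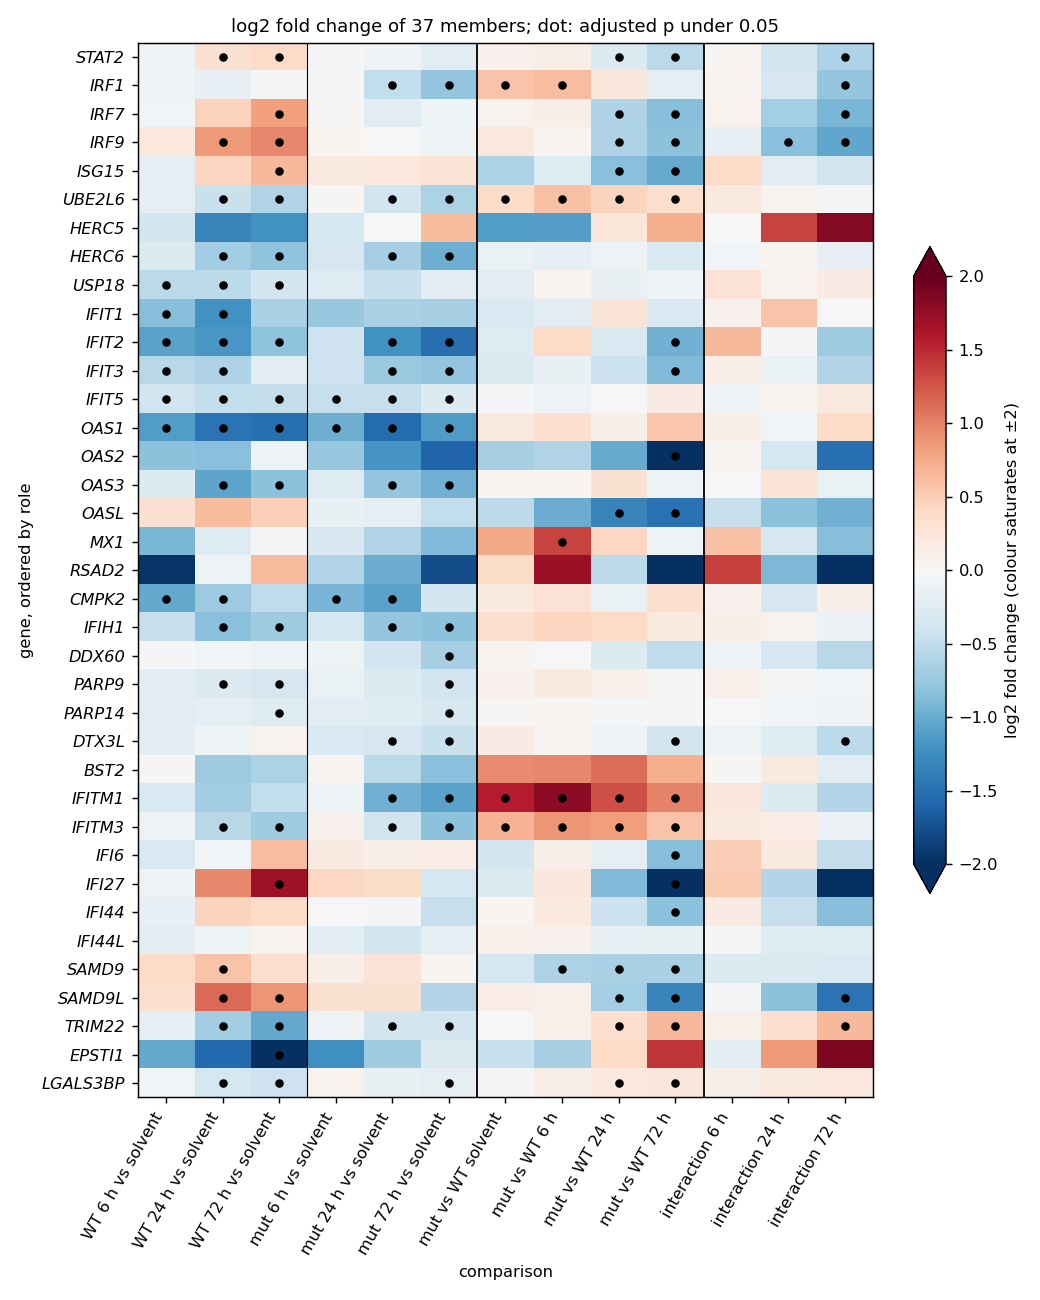
Colours give the log2 fold change of the 37 tested genes (rows, ordered by role) in 13 comparisons (columns), and black dots mark an adjusted p under 0.05. STAT2, IRF7 and IRF9 at the top are red in WT cells at 72 h and blue in mut against WT at 72 h, the rows of OAS1, OAS3 and the IFIT genes are blue under TGFβ1 in both genotypes, and the IFITM1 and IFITM3 rows are red in mut against WT at all 4 treatment states.

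In mut cells, every member called by limma-voom without a block was lower under TGFβ1. At 6 h, 3 members were called lower (8.11%), against 4.94% of all genes called lower and 2.06% higher. At 24 h, 14 were lower, against 17.1% of all genes lower and 6.75% higher. With the series as a block, 18 were lower at 24 h and 1 was higher, against 25.1% and 9.89% of all genes, and the higher one was SAMD9 (0.28, adjusted p = 0.0308), whose 24 h libraries were all above its solvent libraries. At 72 h, 17 were lower (45.9%), against 16.3% lower and 7.81% higher. The medians of the 37 genes were −0.147, −0.385 and −0.456, and those of all genes −0.06, −0.098 and −0.0869. At 72 h, 33 of the 37 log2 fold changes were below zero, as were 65.1% of those of all genes. With TMM, 13 members were lower and 0 higher at 72 h, against 1473 and 1596 of all 14865 genes. The medians were then −0.379 for the members and −0.0101 for all genes. The quasi-likelihood test of edgeR called 10 members lower at 72 h, against 8.95% of all genes, and leaving out the 4 libraries of series 1-2 left 11, against 10.5%. The 6 h count was 9 with the series as a block, against 11.6% of all genes lower, and 0 without the library mut 6 h 65-1, and it was 1 without mut solvent 1-1, mut 6 h 1-1 or mut 6 h 65-2.

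The 17 genes lowered in mut cells at 72 h were IRF1, UBE2L6, HERC6, IFIT2, IFIT3, IFIT5, OAS1, OAS3, IFIH1, DDX60, PARP9, PARP14, DTX3L, IFITM1, IFITM3, TRIM22 and LGALS3BP. The strongest decrease was that of IFIT2 at −1.51 ± 0.29 (adjusted p = 0.000278). The exons of IFIT2, like those of IFIT3, share a stretch with LIPA on the other strand, and the library kit does not tell such reads apart. IFIT2 had 6.58, 4.76, 4.13 and 5.59 CPM in mut solvent and 1.65, 1.73, 1.85 and 2.12 CPM in mut 72 h. The mut 72 h libraries lay close together and well under all mut solvent libraries. DDX60, a helicase that assists RNA sensing, fell by 0.66 ± 0.22 and lost its call under TMM, and also on leaving out any of 6 of the 8 libraries, all but mut solvent 65-1 and mut 72 h 1-1 (adjusted p of 0.0511 to 0.0735). The call of LGALS3BP held in 1 of 8 such fits, without mut 72 h 65-2, and was otherwise lost with adjusted p of 0.0593 to 0.129. That of IFIT5 held without mut solvent 1-1 or 65-1 or mut 72 h 1-1 and was otherwise lost with adjusted p of 0.0587 to 0.153. PARP14 was lost without mut solvent 1-1 or 1-2 or mut 72 h 65-2 (up to 0.0985), and PARP9 without mut 72 h 1-2 or 65-2 (up to 0.069). None of the 4 transcription factors rose in mut cells, and with the series as a block STAT2 was lower at 72 h (−0.22, adjusted p = 0.0073).

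STAT2, the transactivating subunit of ISGF3 (chr12:56341597-56360203, GENCODE release 44 on GRCh38, as for all genes below), gave 40.7, 35.1, 50.1 and 34.2 CPM in WT solvent and 53.3, 45.3, 57.7 and 53.2 CPM in WT 72 h, with series in the order 27-1, 27-2, 2-1 and 2-2, as for all WT values here. In mut cells it gave 44.0, 40.4, 42.6 and 41.0 CPM in solvent and 37.6, 33.2, 38.2 and 35.4 CPM at 72 h, in the order 1-1, 1-2, 65-1 and 65-2, as for all mut values. WT 2-1 in solvent was above 1 of the WT 72 h libraries, and all mut 72 h libraries lay under all WT 72 h libraries. STAT2 rose in WT cells by 0.31 ± 0.10 at 24 h (adjusted p = 0.0111, 0.0597 without WT solvent 2-2) and by 0.39 ± 0.10 at 72 h (adjusted p = 0.00157). At 72 h it was lower in mut than in WT by −0.53 ± 0.10 (adjusted p = 9.81e-05).

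IRF9, the DNA-binding subunit of ISGF3 (chr14:24161234-24168043), gave 9.90, 8.65, 9.84 and 8.09 CPM in WT solvent, 20.5, 13.2, 15.5 and 16.9 CPM in WT 24 h, and 22.0, 13.5, 19.0 and 17.6 CPM in WT 72 h. The mut libraries had 11.0, 9.84, 10.8 and 10.8 CPM in solvent and 9.74, 9.42, 8.78 and 12.6 CPM at 72 h. Every WT library at 24 and 72 h was above every WT solvent library, while the mut 72 h libraries spread over the mut solvent range. IRF9 rose in WT by 0.85 ± 0.15 at 24 h (adjusted p = 3.49e-05) and by 0.95 ± 0.15 at 72 h (adjusted p = 7.38e-06). In mut the change at 72 h was −0.08.

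IRF7, which amplifies interferon production (chr11:612553-615983), gave 3.25, 3.26, 3.67 and 2.92 CPM in WT solvent and 7.05, 6.21, 6.01 and 4.30 CPM in WT 72 h. Mut libraries gave 3.64, 4.02, 2.67 and 3.58 CPM in solvent and 2.38, 3.89, 2.80 and 4.16 CPM at 72 h. The WT groups did not overlap and the mut groups did. The WT increase was 0.83 ± 0.19 at 72 h (adjusted p = 0.000685), and 0.48 at 24 h with the series as a block (adjusted p = 0.00699). At 72 h IRF7 was lower in mut than in WT by −0.85 ± 0.19 (adjusted p = 0.000623), and at 24 h by −0.62 ± 0.20, a call lost without WT 24 h 27-2 (adjusted p = 0.0567).

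IRF1, the interferon-gamma responsive member of the IRF family (chr5:132440440-132508719), took the other course. It gave 28.5, 20.7, 22.0 and 23.9 CPM in WT solvent and 34.7, 32.5, 33.9 and 39.4 CPM in mut solvent. At 72 h the values were 30.9, 21.3, 24.6 and 18.5 CPM in WT and 20.6, 21.6, 19.4 and 19.5 CPM in mut. All mut solvent libraries were above all WT solvent libraries, and all mut 72 h libraries were under all mut solvent libraries. IRF1 was higher in mut by 0.57 ± 0.13 in solvent (adjusted p = 0.00272) and 0.61 ± 0.13 at 6 h (adjusted p = 0.000711), and fell in mut by 0.49 ± 0.12 at 24 h (adjusted p = 0.00505) and 0.79 ± 0.13 at 72 h (adjusted p = 3.29e-05). These comparisons share the mut solvent libraries. In WT its change at 72 h was −0.02.

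**Figure D2:**
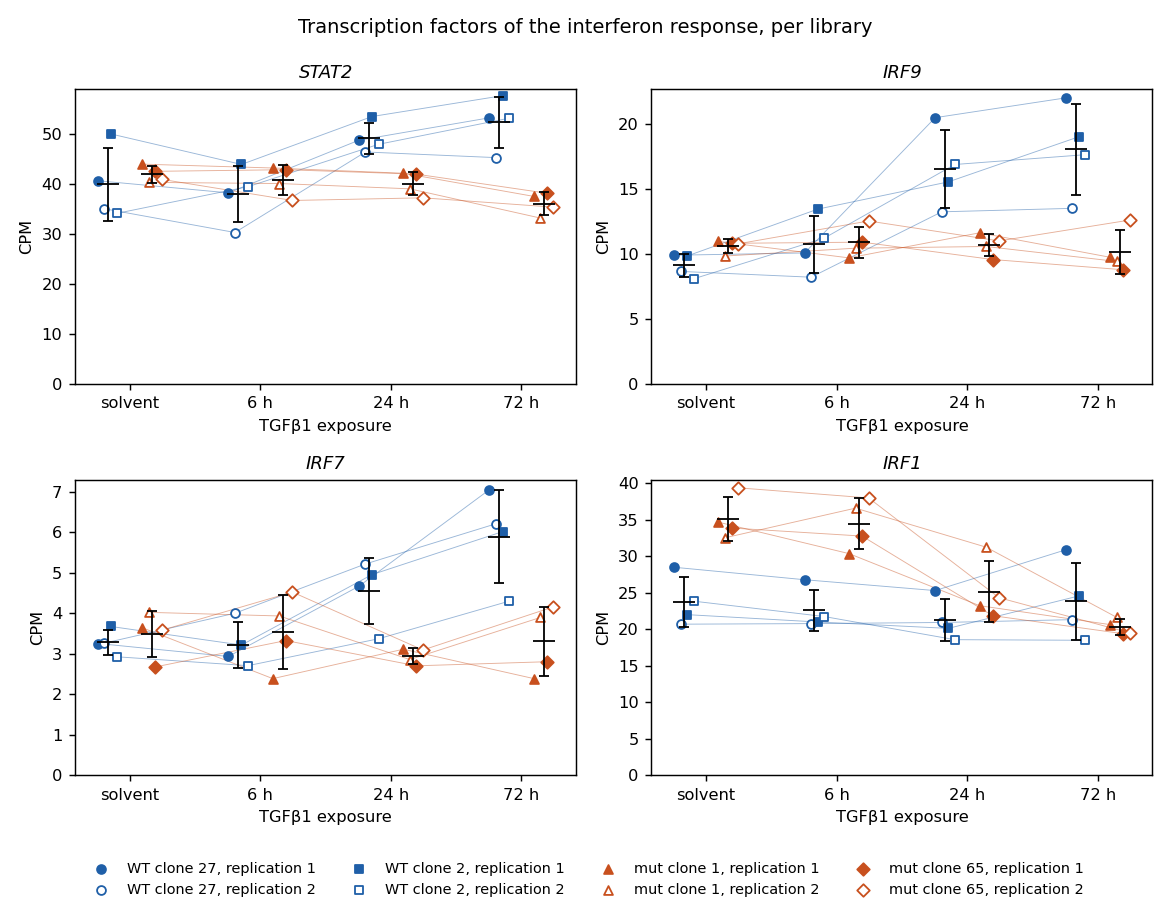
CPM of STAT2, IRF9, IRF7 and IRF1 (panels) in each library by TGFβ1 exposure, with WT in blue and mut in orange, the symbol for the clone, filled for replication 1 and open for replication 2, thin lines joining a series, and black bars for mean ± SD of 4 libraries. The blue points of IRF9 climb from 8.09 to 9.90 CPM in solvent to 13.5 to 22.0 CPM at 72 h while the orange points stay between 8.78 and 12.6 CPM, and the orange points of IRF1 descend from 32.5 to 39.4 CPM to 19.4 to 21.6 CPM.

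The difference between the genotypes in the response, mut change minus WT change, was called for all 4 transcription factors at 72 h. It was −1.03 ± 0.22 for IRF9 (adjusted p = 0.00238), −0.92 ± 0.28 for IRF7 (adjusted p = 0.0297), −0.77 ± 0.18 for IRF1 (adjusted p = 0.00642) and −0.62 ± 0.14 for STAT2 (adjusted p = 0.0048). In IRF9, IRF7 and STAT2 the WT cells rose, and in IRF1 the mut cells fell. IRF7 was called in 9 of 16 fits with 1 library removed, and its adjusted p was at most 0.0794, without mut 72 h 1-1. It was also lost without WT 72 h 27-1, mut 72 h 65-1, WT solvent 2-2 and each of mut solvent 1-1, 1-2 and 65-2, and in the fits without series 27-2 or 1-2, whereas the series block gave an adjusted p of 0.00226. At 24 h IRF9 was called (−0.84 ± 0.22, adjusted p = 0.0164), and STAT2 was called only with the series as a block (adjusted p = 0.00387, 0.0953 without) or with TMM (0.0378).

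In all, 7 members differed in their response at 72 h (18.9%), 1 higher and 6 lower, against 9.40% of all genes higher and 2.92% lower. The other 3 were SAMD9L (−1.47 ± 0.38, adjusted p = 0.0106), DTX3L (−0.52 ± 0.15, adjusted p = 0.0258) and TRIM22 (0.65 ± 0.16, adjusted p = 0.00815). DTX3L was called in 12 of 16 fits that left out 1 library, and lost its call without WT 72 h 27-1 (adjusted p = 0.0676), WT 72 h 2-1, mut solvent 1-2 or mut 72 h 65-2. Its exons overlap those of PARP9 on the other strand. The median over the 37 genes was −0.299, and 29 of 37 values were below zero, while the median of all genes was 0.104 and 36.3% of them were below zero. With TMM, 1 member was higher and 6 lower at 72 h, against 674 and 617 of all 14865 genes. The medians were then −0.387 for the members and 0.0187 for all genes. With library-size scaling, 1 member was called at 24 h, against 7.72% of all genes higher and 1.93% lower, and at 6 h 0 were called, against 0.0740% of all genes in either direction. At 6 h limma-voom also gave 0 members with an unadjusted p under 0.05, and edgeR and DESeq2 called 0. Of all 14865 genes, edgeR called 0 higher and 17 lower there, and DESeq2 4 higher and 42 lower. Since each series contributes to both sides of a TGFβ1 comparison, the fit was repeated with the series as a block, which called 4 members at 24 h, all lower, against 4.64% of all genes lower and 14.1% higher, and 16 at 72 h, 1 higher and 15 lower, against 17.1% and 6.33%. The 9 members that it added at 72 h were all lower, namely IFIT2, IFIT3, OAS2, OASL, RSAD2, DDX60, IFITM1, IFI27 and IFI44. RSAD2, the radical-SAM enzyme viperin, had an estimate of −3.08 (adjusted p = 0.00166) on levels of at most 2.66 CPM.

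**Figure D3:**
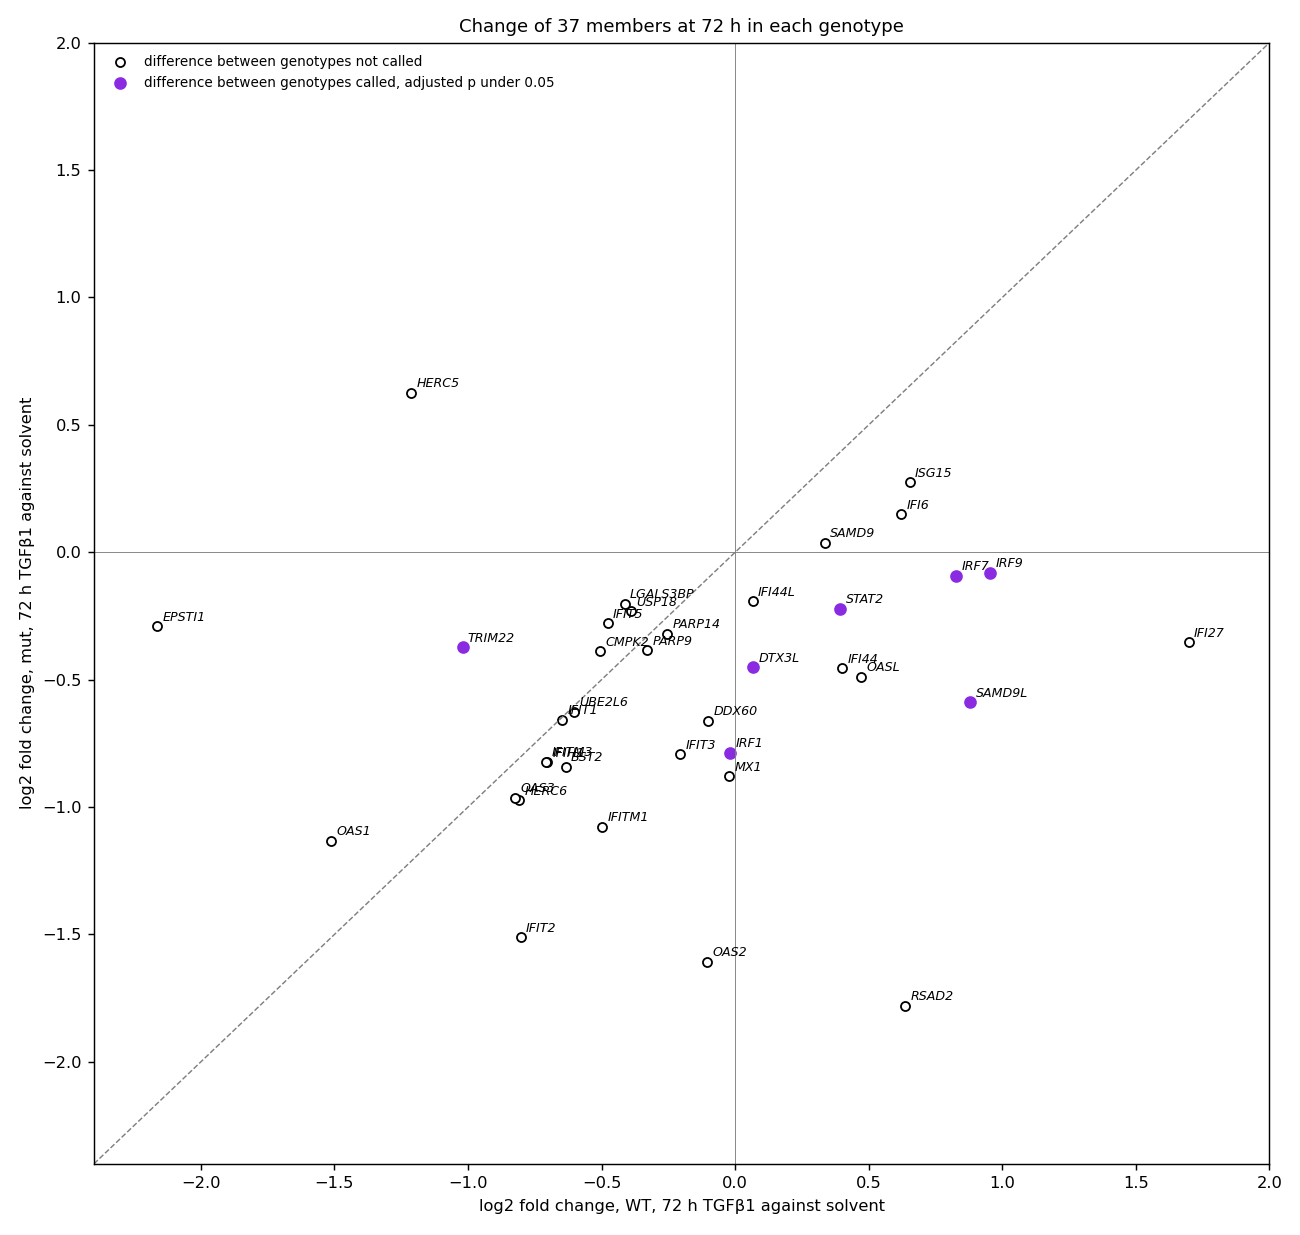
Log2 fold change at 72 h of TGFβ1 against solvent in WT (horizontal) and mut (vertical) for the 37 tested genes, with filled points for the 7 whose difference between genotypes was called and a dashed line of equal change. IRF9, IRF7, STAT2, IRF1, SAMD9L and DTX3L lie under the dashed line, TRIM22 lies above it, and most open points lie under it as well.

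Between genotypes, the membrane proteins IFITM1 and IFITM3 were higher in mut at every treatment state. In solvent 4 members were called, all 4 higher (IRF1, UBE2L6, IFITM1 and IFITM3), against 6.38% of all genes higher and 6.32% lower. At 6 h the count was 5 higher and 1 lower, against 11.3% and 10.0%. At 24 h it was 5 higher and 7 lower, against 24.7% and 12.2%, and with TMM 3 higher and 8 lower, against 16.1% and 17.2%. At 72 h 5 were higher and 14 lower, against 26.0% and 13.2%, and with TMM 3 and 16, against 18.7% and 17.8%. The members lower in mut at 72 h were STAT2, IRF7, IRF9, ISG15, IFIT2, IFIT3, OAS2, OASL, DTX3L, IFI6, IFI27, IFI44, SAMD9 and SAMD9L. The count at 72 h in either direction fell from 19 to 12 without the library WT 72 h 27-1. The lower calls lost were those of IFIT2 (adjusted p = 0.0608), OAS2 (0.056), DTX3L (0.0642), IFI6 (0.0791), IFI44 (0.121) and SAMD9 (0.0631). The higher call of UBE2L6 (0.0655) was lost too. DTX3L was lost without mut 72 h 65-2 as well (0.0532), and IFI44 without that library, mut 72 h 65-1 or 1-2, or WT 72 h 2-1.

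IFITM1, which blocks the fusion of viruses at the cell surface (chr11:310041-315272), had 8.75, 2.68, 4.37 and 4.13 CPM in WT solvent and 15.9, 13.8, 12.8 and 12.9 CPM in mut solvent. At 72 h it had 7.03, 2.20, 3.26 and 2.35 CPM in WT and 7.28, 5.60, 6.46 and 6.93 CPM in mut. The solvent groups did not overlap, and at 72 h WT 27-1 reached into the mut range. The difference was 1.56 ± 0.29 in solvent (adjusted p = 0.000448), 1.79 ± 0.30 at 6 h, 1.29 ± 0.36 at 24 h and 0.98 ± 0.34 at 72 h (adjusted p = 0.0231). The call at 72 h was lost without mut 72 h 1-1, WT 72 h 27-2 or WT 72 h 2-2, with adjusted p of 0.0516 to 0.1. In mut cells IFITM1 fell by 1.08 ± 0.26 at 72 h (adjusted p = 0.00256), which edgeR and DESeq2 did not call.

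IFITM3, its paralog of the endosome (chr11:319676-329475), had 448, 319, 451 and 446 CPM in WT solvent and 674, 598, 714 and 675 CPM in mut solvent. At 72 h it had 287, 229, 271 and 227 CPM in WT and 361, 322, 389 and 439 CPM in mut. The genotypes did not overlap at either state, and in WT the groups at 72 h and in solvent did not overlap either. TGFβ1 lowered IFITM3 by 0.71 ± 0.13 in WT (adjusted p = 5.63e-05) and by 0.82 ± 0.13 in mut at 72 h (adjusted p = 3.53e-05), and mut exceeded WT by 0.69 ± 0.13 in solvent (adjusted p = 0.000638) and 0.57 ± 0.13 at 72 h (adjusted p = 0.000973). IFITM1, IFITM2 and IFITM3 are close paralogs, so that reads could have been assigned to the wrong copy.

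ISG15, a ubiquitin-like modifier (chr1:1001138-1014540), had 3.98, 4.47, 4.91 and 4.13 CPM in WT solvent and 3.70, 2.29, 3.51 and 2.13 CPM in mut solvent. At 72 h it had 10.1, 4.49, 8.44 and 5.99 CPM in WT and 3.82, 3.38, 2.97 and 3.49 CPM in mut. All mut libraries lay under all WT libraries at both states. ISG15 rose in WT by 0.65 ± 0.21 at 72 h (adjusted p = 0.00941, 0.0553 without WT 72 h 27-1), and with the series as a block also at 24 h (0.46, adjusted p = 0.0215). Mut was lower than WT by −0.84 ± 0.23 at 24 h (adjusted p = 0.00487) and −1.0 ± 0.21 at 72 h (adjusted p = 0.000462). The solvent difference of −0.62 was not called. Of the enzymes of ISG15 conjugation, UBE2L6 was higher in mut at all 4 treatment states, by 0.38 ± 0.12 in solvent. That call was lost without WT solvent 27-1 (0.26, adjusted p = 0.178), mut solvent 1-1 or mut solvent 1-2, and the 72 h call with TMM and without WT 72 h 2-2 (0.25, adjusted p = 0.162), WT 72 h 27-1, mut 72 h 1-2 or mut 72 h 65-2. The ligase HERC5 was called in no TGFβ1 or genotype comparison.

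IFI27, a small hydrophobic protein (chr14:94104836-94116695), had 3.15, 1.45, 2.07 and 1.01 CPM in WT solvent and 22.3, 2.45, 8.34 and 2.79 CPM in WT 72 h. In mut it had 2.43, 1.03, 1.75 and 1.09 CPM in solvent and 1.31, 1.29, 0.902 and 1.12 CPM at 72 h. The replication 1 libraries of both WT clones were the highest, and all mut 72 h libraries lay under all WT 72 h libraries. IFI27 rose in WT by 1.70 ± 0.61 at 72 h (adjusted p = 0.0211). This call was lost without WT 72 h 27-1 (1.06, adjusted p = 0.0727) or WT solvent 2-2 (adjusted p = 0.0639), and the series block gave 2.16 (adjusted p = 3.73e-08). Mut was lower than WT by −2.34 ± 0.68 at 72 h (adjusted p = 0.0071). The difference in response was −2.05 ± 1.02 (adjusted p = 0.196) and −2.56 with the series as a block (adjusted p = 0.000182).

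IFI6, a protein of the same family (chr1:27666064-27672212), had 6.61, 5.74, 7.43 and 4.66 CPM in WT solvent and 18.8, 6.01, 12.9 and 5.37 CPM in WT 72 h. In mut it had 5.54, 3.68, 5.16 and 4.50 CPM in solvent and 6.05, 4.72, 5.13 and 4.92 CPM at 72 h. Again the replication 1 libraries of both WT clones stood above those of replication 2, which lay within the solvent range. The WT change was 0.62 ± 0.27 at 72 h (adjusted p = 0.0529) and was called with the series as a block (0.76, adjusted p = 0.000402) and with TMM (0.79, adjusted p = 0.0144). Mut was lower than WT by −0.85 ± 0.27 at 72 h (adjusted p = 0.0134, 0.0791 without WT 72 h 27-1).

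**Figure D4:**
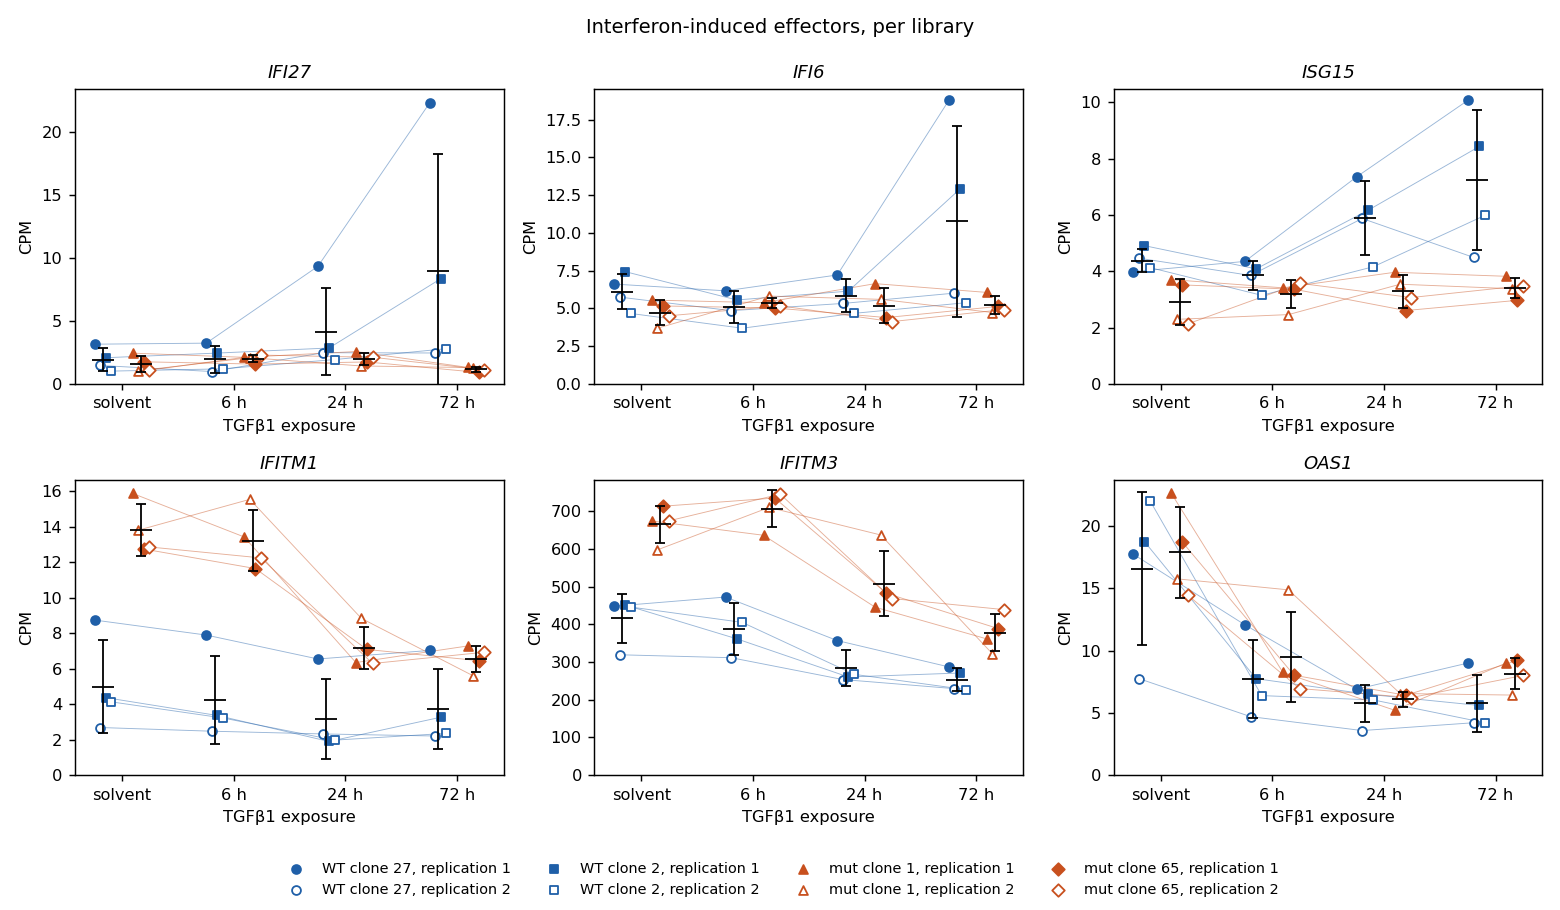
CPM of IFI27, IFI6, ISG15, IFITM1, IFITM3 and OAS1 (panels) in each library by TGFβ1 exposure, with WT in blue, mut in orange, filled symbols for replication 1 and open symbols for replication 2, and black bars for mean ± SD of 4 libraries, of which the lower end is cut at 0 for IFI27. In WT 72 h the filled points of IFI27 stand at 22.3 and 8.34 CPM and the open points at 2.45 and 2.79 CPM, and in the OAS1 panel both genotypes fall from solvent to 24 h.

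OAS1, which makes 2-5A to activate RNase L (chr12:112905856-112933219), had 17.7, 7.75, 18.8 and 22.0 CPM in WT solvent and 6.90, 3.58, 6.49 and 6.04 CPM in WT 24 h. In mut it had 22.6, 15.8, 18.7 and 14.4 CPM in solvent and 5.21, 6.55, 6.41 and 6.23 CPM at 24 h. Neither genotype's 24 h libraries overlapped its solvent libraries. OAS1 fell at all 3 times in both genotypes, by 1.48 ± 0.31 in WT (adjusted p = 0.000205) and 1.54 ± 0.30 in mut (adjusted p = 0.000482) at 24 h, and by 1.51 ± 0.31 and 1.13 ± 0.27 at 72 h. The decrease of 0.98 ± 0.26 in mut at 6 h (adjusted p = 0.0236) was lost without mut solvent 1-1 or mut 6 h 1-1, 65-1 or 65-2, with adjusted p of 0.0523 to 0.124. OAS3 fell with it, by 1.06 ± 0.19 in WT and 0.78 ± 0.18 in mut at 24 h.

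OAS2, a further 2-5A synthetase (chr12:112978395-113011723), had 1.34, 1.11, 2.68 and 0.548 CPM in WT 72 h and 0.454, 0.367, 0.0475 and 0.447 CPM in mut 72 h. The groups did not overlap, and mut 65-1 lay under the floor. The difference was −2.16 ± 0.81 (adjusted p = 0.0351). The call was lost without any of 6 of the 8 libraries, all but WT 72 h 27-2 and 2-2, up to an adjusted p of 0.123 without mut 72 h 65-1, and without series 1-2. Within the mut clones OAS2 was lower in clone 65 than in clone 1 by −2.02 ± 0.49 (adjusted p = 0.0225). OASL, which lacks the synthetase activity, was lower in mut at 24 h (−1.34 ± 0.39) and 72 h (−1.49 ± 0.41, adjusted p = 0.00506).

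IFIT1, which binds viral RNA lacking a methylated cap (chr10:89392546-89406487), had 4.95, 3.26, 4.62 and 3.38 CPM in WT solvent, 2.53, 1.83, 1.61 and 1.11 CPM in WT 24 h and 3.91, 1.56, 4.36 and 1.71 CPM in WT 72 h. In mut it had 4.42, 2.25, 3.14 and 3.60 CPM in solvent and 2.04, 2.30, 2.14 and 1.81 CPM at 72 h. WT 24 h lay under WT solvent throughout, whereas at 72 h the replication 1 libraries lay within the solvent range and those of replication 2 under it. IFIT1 fell in WT by 0.85 ± 0.29 at 6 h (adjusted p = 0.043) and 1.21 ± 0.31 at 24 h (adjusted p = 0.00186). At 6 h the call held in 2 of 8 fits that left out 1 library, without WT solvent 27-2 or 2-2, and was lost in the other 6 with adjusted p of 0.0523 to 0.161, as it was with TMM, edgeR and DESeq2. In mut the change at 72 h was −0.66 (adjusted p = 0.11, 0.0275 with the series as a block).

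MX1 (chr21:41420020-41470071) had 0.595, 0.487, 0.299 and 0.384 CPM in WT 6 h and 0.794, 1.37, 0.993 and 1.37 CPM in mut 6 h. These groups did not overlap, and MX1 was higher in mut by 1.35 ± 0.41 (adjusted p = 0.019). The call was lost without WT 6 h 2-1 (adjusted p = 0.0609), WT 6 h 2-2 or mut 6 h 65-2, and without series 1-2. In mut solvent MX1 had 1.97, 1.35, 1.01 and 1.39 CPM and in mut 72 h 0.681, 0.808, 0.760 and 0.760 CPM, all under the solvent libraries. That change was −0.88 ± 0.34 (adjusted p = 0.0574) and −0.90 with the series as a block (adjusted p = 0.00936). An exon of MX1 overlaps TMPRSS2 on the other strand. Of its group, CMPK2, a mitochondrial nucleotide kinase, was called lower in both genotypes at 6 and 24 h, on means of at most 1.94 CPM. Leaving out 1 library lost the call in 4 of 8 fits in WT at 6 h (adjusted p up to 0.155, without WT 6 h 27-2), in 5 of 8 in WT at 24 h (up to 0.23, without WT 24 h 27-2) and in 7 of 8 in mut at 6 h (up to 0.234, without mut 6 h 65-1). RSAD2, whose exons overlap those of CMPK2, was called in no comparison without the block.

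SAMD9L, an inhibitor of translation (chr7:93130056-93148385), had 3.69, 3.16, 3.67 and 1.86 CPM in WT solvent, 9.75, 5.75, 5.64 and 5.73 CPM in WT 24 h and 8.46, 5.52, 5.59 and 3.68 CPM in WT 72 h. In mut it had 2.77, 3.73, 3.87 and 3.16 CPM in solvent and 1.72, 2.46, 2.90 and 2.06 CPM at 72 h. WT 24 h was above WT solvent throughout, and all mut 72 h libraries lay under all WT 72 h libraries. SAMD9L rose in WT by 1.13 ± 0.24 at 24 h (adjusted p = 0.000291) and 0.88 ± 0.25 at 72 h (adjusted p = 0.00426). Mut was lower by −0.68 ± 0.22 at 24 h (adjusted p = 0.018, 0.113 without WT 24 h 27-1) and −1.33 ± 0.26 at 72 h (adjusted p = 0.000204). Its neighbour SAMD9 was also lower in mut, by −0.65 ± 0.20 at 72 h, a call lost without WT 72 h 27-1 (−0.50, adjusted p = 0.0631) or mut 72 h 65-2 (adjusted p = 0.056).

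TRIM22, a ubiquitin ligase that restrains viral transcription (chr11:5689610-5737089), had 60.7, 49.3, 56.4 and 59.4 CPM in WT solvent and 31.9, 28.0, 28.8 and 23.1 CPM in WT 72 h. In mut it had 55.5, 53.3, 57.0 and 59.5 CPM in solvent and 43.0, 38.7, 52.4 and 41.8 CPM at 72 h. The 72 h libraries lay under the solvent libraries in both genotypes, and the mut 72 h libraries lay above the WT 72 h libraries. TRIM22 fell by 1.02 ± 0.12 in WT (adjusted p = 4.52e-08) and by 0.37 ± 0.11 in mut (adjusted p = 0.0133, 0.0618 without mut 72 h 1-2), and mut exceeded WT at 72 h by 0.65 ± 0.12 (adjusted p = 8.39e-05).

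EPSTI1, a gene first found in epithelial-stromal co-culture (chr13:42886388-42992271), had 0.692, 0.602, 0.315 and 0.101 CPM in WT solvent and 0.110, 0.0405, 0.117 and 0.0457 CPM in WT 72 h. WT solvent 2-2 lay within the 72 h range, and both replication 2 libraries at 72 h lay under the floor. EPSTI1 fell by 2.16 ± 0.82 (adjusted p = 0.0282). The call was lost without WT solvent 27-1 (adjusted p = 0.0867) or 27-2, without WT 72 h 27-2 or 2-2, without series 27-2 and with TMM (adjusted p = 0.0505).

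The replication number moved with the level of these genes in WT cells, most at 72 h. In WT 72 h the median difference of replication 1 minus replication 2 was 0.648 on the log2 scale over the 37 genes and 0.0292 over all genes. It was above zero for 36 of 37 genes, against 58.4% of all genes. In both WT clones, 32 were higher in replication 1, and the share of all genes for this is not given. In WT the medians were 0.187 and 0.0108 in solvent, 0.242 and 0.0258 at 6 h, and 0.288 and 0.0390 at 24 h. In mut they were 0.0844 and −0.0039 in solvent and −0.0704 and −0.0103 at 6 h. At 24 h in mut they were −0.0303 and −0.00054, and at 72 h 0.141 and 0.023. Replication number took a median of 6.86% of the variance of a member and 1.80% of that of all genes, whereas genotype took 13.4% and 12.9% and time 26.3% and 29.0%. The labels do not say what separated the replications, and the part of this difference in the WT results was not tested. Over the 37 genes, the mean of log2(CPM + 0.5) was 3.42 ± 0.125 in WT solvent (SD, n = 4), 3.18 ± 0.184 at 6 h, 3.18 ± 0.201 at 24 h and 3.31 ± 0.380 at 72 h. In mut it was 3.48 ± 0.120, 3.32 ± 0.0954, 3.12 ± 0.130 and 3.02 ± 0.0760. The mut level thus fell by 0.461 from solvent to 72 h, with a pooled SD of single libraries of 0.100. The WT difference was −0.112, with a pooled SD of 0.283, and 0.00212 without WT 72 h 2-2. This SD does not measure the error of a difference between means, and the differences in mean level were not tested. By series, the WT change at 72 h was 0.19 in 27-1, −0.25 in 27-2, 0.03 in 2-1 and −0.42 in 2-2, and the mut change was −0.53, −0.43, −0.42 and −0.47.

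**Figure D5:**
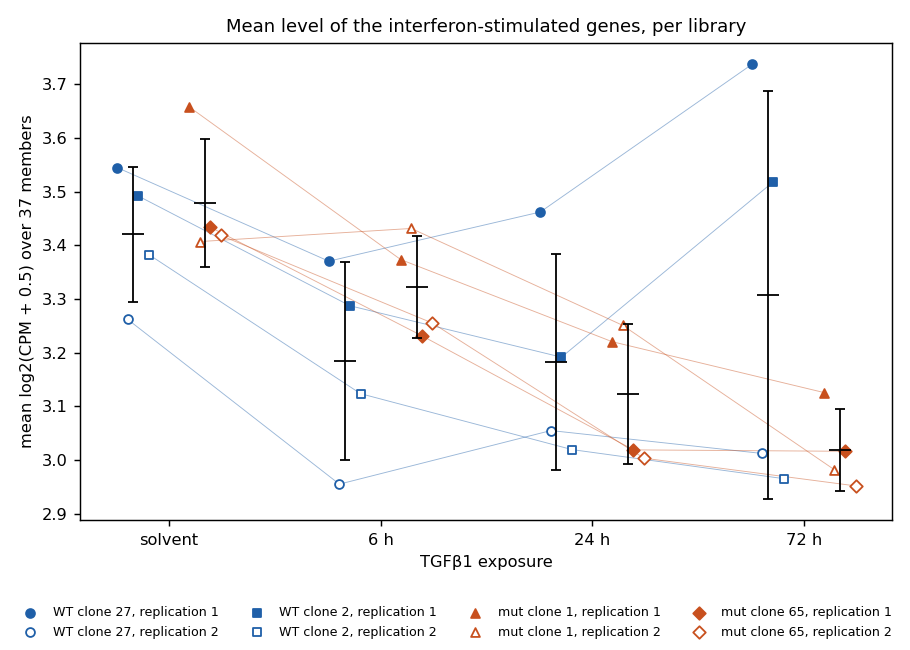
Mean of log2(CPM + 0.5) over the 37 tested genes in each library by TGFβ1 exposure, with WT in blue, mut in orange, filled symbols for replication 1, open symbols for replication 2, thin lines joining a series and black bars for mean ± SD of 4 libraries. The mut libraries descend from 3.41 to 3.66 in solvent to 2.95 to 3.13 at 72 h, and the WT libraries spread from 2.97 to 3.74 at 72 h with both filled points on top.

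The members did not all vary together. The mean of its group was first subtracted from each value, so that differences between the groups in genotype and time were removed. Differences between replications and between clones of a genotype were not removed. Over the 32 libraries, which share clones and series, the correlation of a member with the mean of the others was then highest for IFIT2 (r = 0.884). The next were DDX60 and HERC6 (both 0.880) and IFI6 (0.863), and the lowest were UBE2L6 (−0.128) and IFI44L (−0.101). The median correlation over the 666 pairs of members was 0.363 (lowest −0.599, highest 0.888). IFI44L, a relative of IFI44, and BST2, which tethers virus particles to the cell, were called in no TGFβ1 or genotype comparison. Between the WT clones, HERC5 was higher in clone 2 than in clone 27 by 1.48 ± 0.44, and MX1 and IFI44 were lower by −0.86 ± 0.26 and −0.56 ± 0.17, against 5.53% of all genes higher and 4.24% lower. Between the mut clones, OAS2, BST2 (−1.27 ± 0.30) and PARP14 (−0.24 ± 0.06) were lower in clone 65 than in clone 1, against 1.24% of all genes lower.

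The genes upstream of these members were followed in lists of the pathway. Of 11 interferon genes, 3 were in the table and 2 were tested, IFNA1 and IFNE. IFNA1 was lower in mut at 24 h (adjusted p = 0.00639), with means of 0.0351 CPM in mut, under the floor, and 0.179 CPM in WT. Of 9 receptors and kinases, 2 rose and 1 fell in WT at 72 h, against 13.9% of all genes called higher and 38.4% lower. In mut 1 rose and 1 fell, against 7.81% and 16.3%. The kinase JAK1 rose in WT by 0.40 ± 0.05 and its response was lower in mut (−0.32 ± 0.08, adjusted p = 0.00587). IFNGR1, a chain of the interferon-gamma receptor, was higher in mut solvent by 0.72 ± 0.10 (adjusted p = 1.12e-05) and fell in mut at 72 h by 0.73 ± 0.10.

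Among 12 tested sensors of nucleic acids and their adaptors, 1 rose and 6 fell in WT at 72 h, against 13.9% of all genes called higher and 38.4% lower. In mut 0 rose and 5 fell, against 7.81% and 16.3%. Those that fell included the double-stranded RNA receptor TLR3 in both genotypes (−0.76 ± 0.13 and −0.50 ± 0.12) and STING1, an adaptor of DNA sensing, in mut (−0.71 ± 0.11). MYD88, an adaptor of Toll-like receptors, rose in WT by 0.53 ± 0.06, and its response was lower in mut (−0.63 ± 0.09, adjusted p = 5.64e-05). Against the same shares of all genes, 4 of 10 negative regulators rose and 3 fell in WT at 72 h. In mut 0 rose and 4 fell. SOCS3, which inhibits JAK kinases, went from 2.19 ± 0.596 CPM to 4.92 ± 2.10 CPM in WT and from 6.12 ± 0.937 CPM to 2.76 ± 0.627 CPM in mut, and its difference in response was −2.25 ± 0.40 (adjusted p = 0.000545). SOCS1 followed at −1.90 ± 0.63 (adjusted p = 0.0473), from levels of at most 1.93 CPM. Against the same shares, 10 of 43 other interferon-induced genes rose and 14 fell in WT at 72 h. In mut 2 rose and 12 fell. SECTM1, a secreted and transmembrane protein, fell in both (−2.59 ± 0.25 and −1.52 ± 0.21), as did LY6E (−1.44 ± 0.16 and −1.27 ± 0.16), and CD274, which encodes PD-L1, rose in WT (1.50 ± 0.26). SP110, a nuclear body protein, had the lowest difference in response of these, −1.09 ± 0.13 (adjusted p = 9.6e-06). In mut solvent GBP2, a guanylate-binding protein, was higher by 1.62 ± 0.43 (adjusted p = 0.0112). Its relatives GBP4 in mut against WT solvent (means 0.433 and 0.0330 CPM) and GBP5 in WT 72 h against solvent (0.234 and 0.0251 CPM) were called higher as well, with the lower mean under the floor.

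The ISRE core was compared with the calls at 72 h. In WT, 2 of 5 matched promoters of members called higher held it (ISG15 and IFI27), 7 of 11 of those called lower and 12 of 15 of those not called. In mut, 10 of 15 of those called lower and 11 of 16 of those not called held it.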

How the data were processed

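The authors deposited read counts, whole numbers for each gene, not normalized, made with Trimmomatic and STAR on GRCh38 in the Ensembl version (versions not given in the sources used here). The kit (TruSeq RNA Sample Prep Kit v2) does not mark strand. GENCODE release 44 named 17763 of 17788 identifiers. No per-sample column was left unused (0). Libraries were grouped by their labels. Chi-square tests between libraries of a group gave at least 11.5 per degree of freedom (WT 6 h 2-1 against 2-2), so each library counted as 1 sample.

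After filterByExpr of edgeR 4.0.16 (minimum count 10, total 15), counts were scaled by library size and fitted with voom of limma 3.58.1 (R 4.3.3), model ~0 + condition over all 32 libraries. There were 13 comparisons, with a separate model for clones. Alternatives were TMM factors, the quasi-likelihood test of edgeR, DESeq2 1.42.0, no low-count filter, sums of the replications of a clone, the series as a replicate block, fits without series 27-2, 1-2 or each library, and, chosen after seeing the data, TMM with the block. Series numbers pair the TGFβ1 and solvent libraries of the same clone. Their residuals correlated at a mean r of 0.43 (lowest −0.0601, 48 pairs), against 0.00716 for the same clone in the other replication. Tests were tested on simulated data. The floor covers counting error only, and ± values are SDs over libraries or SEs of the fit.

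The members and gene lists were chosen with earlier results of these data known. Every member is named. Values by library are given for STAT2, IRF1, IRF7, IRF9, ISG15, IFI6, IFI27, IFIT1, MX1 and OAS1, and for the 2 called members with the most positive and the 2 with the most negative fold change in WT at 24 or 72 h, mut against WT in solvent or at 72 h, and the difference in response at 72 h. Pathway genes were named when called, at most 4 a list, except that more were named of the other interferon-induced genes. The values of IFIT2 were chosen after they were seen. A pathway gene and a promoter stretch are not reported here.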

Additional observations from a re-analysis of the deposited data

Results flagged for a closer look

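In 136 sets of 4 libraries of a group, the highest or lowest value was set apart when its gap to the nearest of the other 3, as a share of the whole range, exceeded Dixon's 95% critical value, and 16 were found. Chance gives about 1 in 20. Of the 16, 5 were the WT 24 h library 27-1 and 2 the WT 6 h library 27-1. WT 24 h 27-1 stood above the others for IFI27 (9.33 CPM against 1.92 to 2.84 CPM, gap share 0.876), SAMD9L (9.75 against 5.64 to 5.75 CPM, 0.974), IFITM1 (6.55 against 1.90 to 2.32 CPM, 0.909), IFITM3 (357 against 254 to 267 CPM, 0.866) and TRIM22 (44.3 against 30.6 to 32.3 CPM, 0.873). WT 6 h 27-1 stood above for IRF1 (26.8 against 20.8 to 21.7 CPM, 0.839) and IFITM1 (7.90 against 2.48 to 3.36 CPM, 0.837). Series 27-2 stood below for IFITM3 in solvent (319 against 446 to 451 CPM, 0.959) and TRIM22 at 6 h (39.6 against 53.8 to 54.6 CPM, 0.942). WT solvent 27-1 stood below for OAS2 (0.797 against 1.53 to 1.63 CPM, 0.881), and WT 6 h 2-1 above for SAMD9L (5.78 against 3.34 to 3.49 CPM, 0.940).

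Among mut libraries, 1-2 stood below for IRF9 in solvent (9.84 against 10.8 to 11.0 CPM, 0.838) and for EPSTI1 in solvent (0.0898 against 0.339 to 0.362 CPM, 0.914), and above for OAS1 at 6 h (14.9 against 6.95 to 8.25 CPM, 0.837). The library 1-1 stood above for EPSTI1 at 72 h (0.473 against 0.134 to 0.184 CPM, 0.854) and, in solvent, for the mean of log2(CPM + 0.5) over the 37 members (3.66 against 3.41 to 3.43, 0.893).

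The response to TGFβ1 differed between the genotypes by the interaction term of limma-voom for IRF9 at 24 h (−0.84) and, at 72 h, for STAT2 (−0.62), IRF1 (−0.77), IRF7 (−0.92), IRF9 (−1.03), DTX3L (−0.52), SAMD9L (−1.47) and TRIM22 (0.65). These are log2 differences of the mut change minus the WT change, whose adjusted p are given above.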

How the results depend on the processing

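No called change of a member reversed its direction under the alternatives run. Differences in the mean level of the 37 members moved by less than 1 SD, but 3 of them, each smaller than its SD, changed sign. WT 72 h against solvent went from −0.112 to 0.00212 without WT 72 h 2-2 and to 0.0282 with TMM, mut against WT at 24 h from −0.0586 to 0.0348 without WT 24 h 27-1, and mut against WT in solvent from 0.0590 to −0.000576 without mut solvent 1-1. The numbers of members called by the quasi-likelihood test were 3 in WT at 6 h (7 as reported), 1 in mut at 6 h (3), 9 in mut at 24 h (14), 10 in mut at 72 h (17) and 2 for the difference in response at 24 h (1). All were lower, against 884, 206, 1080, 1331 and 463 of all 14865 genes called lower in the same order. The fit as reported called 1764, 735, 2537, 2423 and 287 of all genes lower. DESeq2 called 9 members in mut at 24 h and 2 for the difference at 24 h, and TMM gave 2 for that difference. These too were all lower, against 1114, 581 and 417 of all 14865 genes called lower. Sums of the replications of a clone gave 1 in mut at 6 h, which was lower, against 70 of 15640 genes called lower. Leaving out series 1-2 gave 11 in mut at 72 h, all lower, against 1576 of 14956 genes called lower. The series as a replicate block gave 12 in WT at 6 h, 9 in mut at 6 h, and 4 and 16 for the difference in response at 24 and 72 h (7 as reported at 72 h). With TMM and the block together, chosen after seeing the data, these were 5 in mut at 6 h, and 7 and 17 for the difference at 24 and 72 h. The 5 and the 7 were all lower, against 911 and 1107 of all 14865 genes called lower. Of the 17, 1 was higher and 16 lower, against 1460 and 1323 of all genes. A block could not be fitted for mut against WT, since a series lies within a genotype. The block lost no called member in the TGFβ1 comparisons or the differences in response.

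Leaving out 1 library gave 3 to 7 called members in WT at 6 h, 16 to 20 at 24 h and 15 to 21 at 72 h, and 0 to 4, 10 to 15 and 12 to 17 in mut. For mut against WT it gave 3 to 4 in solvent, 4 to 7 at 6 h, 9 to 12 at 24 h and 12 to 19 at 72 h. For the difference in response it gave 0 at 6 h, 1 to 2 at 24 h (2 without WT solvent 2-1) and 5 to 8 at 72 h. The shares of all genes called in fits without 1 library are not given here, so these counts do not describe the members alone. The causes were not tested. Levels under about 1 CPM, as for EPSTI1, OAS2, RSAD2, HERC5 and MX1, rest on few reads, and changes in them were less detectable at this depth.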
